A study of Mus musculus with 6 samples.

Results

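The circadian clock genes were followed in the hippocampus of mice after traumatic brain injury (TBI). The set was a fixed list of 10 symbols, namely the activators Arntl (also written Bmal1) and Clock, the repressors Per1, Per2, Per3, Cry1, Cry2 and Ciart, the nuclear receptor Nr1d1 and the output factor Dbp. All 10 were found once each among the 52550 genes listed for every library. The sham group and the TBI group held 3 male C57BL / 6 mice each, aged 8 to 10 weeks, with 1 library per mouse from hippocampal tissue taken 24 h after surgery. Sham mice had the ketamine and xylazine anaesthesia, the skin incision and the craniotomy over the right parietal bone without the impact, and TBI mice had a controlled cortical impact of moderate severity in addition. The surgery is thus shared by both groups, and an uninjured, unoperated mouse was not part of the comparison. Per the study's methods the cortex was lifted off on both sides and the whole hippocampus was taken. The mice were kept under a light-dark cycle, and the hour of day at which each was killed is not given in the sources used here.

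The clock is a feedback loop of transcription. Arntl and Clock pair and bind E-boxes in front of the Per and Cry genes, whose proteins return to the nucleus and shut their own activators down, so that levels of these RNAs swing over the day in most cells. Nr1d1 (REV-ERB alpha) represses Arntl through ROR elements, Ciart (CHRONO) is a further repressor of the Arntl and Clock pair, and Dbp carries the rhythm to other genes through D-boxes. The hippocampus has such a clock of its own, which follows the master clock of the hypothalamus and also responds to glucocorticoids, feeding and neuronal activity.

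Of the 10 genes 9 had at least 1 RefSeq promoter window on GRCm38.p6, from 250 bases before to 50 after the start of transcription, and these gave 13 windows. Per2 had none in that table. An E-box (CACGTG, which reads the same on both strands) was present in a window of 3 of the genes, Per1, Cry1 and Ciart, and in 7.15% of all 32851 windows. Ciart had 3 of them, at 116, 58 and 44 bases before its start, which only 29 windows in all (0.0883%) matched or exceeded. A D-box (TTATGTAA, either strand) was present in Per3 only among the 9, and Per3 had 2 of them, 205 and 158 bases before its start, against 0.938% of all windows with at least 1 and 7 windows with 2 or more. A ROR element (either strand, the matched letters being those in capitals in the Arntl line) was present in Arntl only among the 9, 27 bases after the start of transcription in its window 2, and in 0.219% of all windows. The stretches that hold these elements are printed 5′ to 3′ on the strand of the gene with the elements in capitals, since they show where in each promoter the elements of the loop lie. For Ciart, Per3 and Cry1, on the minus strand, and Per1, on the plus strand, the 250 bases before the start are given, and for Arntl, on the plus strand, 30 bases around the ROR element. In the GENCODE vM21 annotation the stretches of Ciart, Cry1 and Per1 include 23, 10 and 1 exonic bases, and that of Per3 includes 0. The window of Per1 lies inside the annotated gene.
Ciart, chr3:95882229-95882478, E-boxes in capitals: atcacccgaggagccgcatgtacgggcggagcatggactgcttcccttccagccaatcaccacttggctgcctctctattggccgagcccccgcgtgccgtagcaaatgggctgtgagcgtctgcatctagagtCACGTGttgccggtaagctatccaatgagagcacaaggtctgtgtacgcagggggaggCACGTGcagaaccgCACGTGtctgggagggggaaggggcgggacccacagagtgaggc
Cry1, chr10:85185055-85185304, E-box in capitals: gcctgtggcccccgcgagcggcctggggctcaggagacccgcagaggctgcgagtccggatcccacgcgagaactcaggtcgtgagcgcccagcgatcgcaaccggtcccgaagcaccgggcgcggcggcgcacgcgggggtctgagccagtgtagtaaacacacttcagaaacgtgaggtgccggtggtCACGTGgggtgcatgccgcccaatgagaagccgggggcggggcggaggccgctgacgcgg
Per1, chr11:69098699-69098948, E-box in capitals: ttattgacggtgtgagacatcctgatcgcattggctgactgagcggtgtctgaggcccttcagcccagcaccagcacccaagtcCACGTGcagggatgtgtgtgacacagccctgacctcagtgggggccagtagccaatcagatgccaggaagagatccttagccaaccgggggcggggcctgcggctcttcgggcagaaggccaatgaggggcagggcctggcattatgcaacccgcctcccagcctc
Per3, chr4:151044666-151044915, D-boxes in capitals: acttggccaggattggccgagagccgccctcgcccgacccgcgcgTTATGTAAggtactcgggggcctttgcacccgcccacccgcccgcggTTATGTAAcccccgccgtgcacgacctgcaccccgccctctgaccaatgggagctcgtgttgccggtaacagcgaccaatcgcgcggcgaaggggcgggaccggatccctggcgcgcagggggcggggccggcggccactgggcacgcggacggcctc
Arntl, chr7:113207528-113207557, ROR element in capitals: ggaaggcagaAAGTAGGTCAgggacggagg

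The estimated counts summed to between 31630936 and 41771872 per library, and levels are given as CPM, counts scaled to a common library size with edgeR's TMM factors. Marker lists of cell types and regions set single libraries of both groups apart. Summed hippocampal neuron markers ran from 336 to 814 CPM in 5 libraries and were 122 CPM in TBI1, where C1ql2, Spink8, Dsp and Lct were at or under 2.45 CPM each. TBI1 had 1903 CPM of 5 striatal markers, against 20.5 to 54.1 in the others, and TBI3 had 1295 CPM of 4 cerebellar markers, against 9.38 to 37.8. Sham2 had 2000 CPM of 5 oligodendrocyte markers, against 6070 to 7450, and 50.3 CPM of 5 choroid plexus markers, against 237 to 2333. The astrocyte markers summed to 5238 CPM in Sham2 and to 1970 to 2612 elsewhere, since Gfap alone was at 4055 CPM there. Aqp4 was also highest in Sham2, Slc1a3 and Gja1 were lowest in it, and Aldh1l1 was highest in TBI1. Thalamic markers ran from 58.3 to 687 CPM, microglial markers from 231 to 470 and endothelial markers from 114 to 162, and no marker was at 0 in every library. Between the groups, all 8 hippocampal neuron markers had a negative log2 fold change (TBI over sham, median -1.11). Prox1 and Fibcd1 of them did not overlap between groups, against 5.45% of all genes tested without overlap and lower in TBI. Both were lowest in TBI1, at 19.6 and 13.1 CPM. All 5 microglial, 5 oligodendrocyte, 5 striatal, 5 thalamic and 4 cerebellar markers had a positive log2 fold change and overlapped. Their medians were 0.39, 0.34, 4.21, 0.80 and 6.37. The medians were -0.11 for astrocyte, 0.021 for endothelial and -0.41 for choroid plexus markers, with both signs in each list. No marker of any list passed the call rule, and the part of the markers in the values of the clock genes was not tested. In RNA from whole tissue, fewer cells of a type, less RNA per cell and a different share of neighbouring tissue cannot be told apart.

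**Figure D1:**
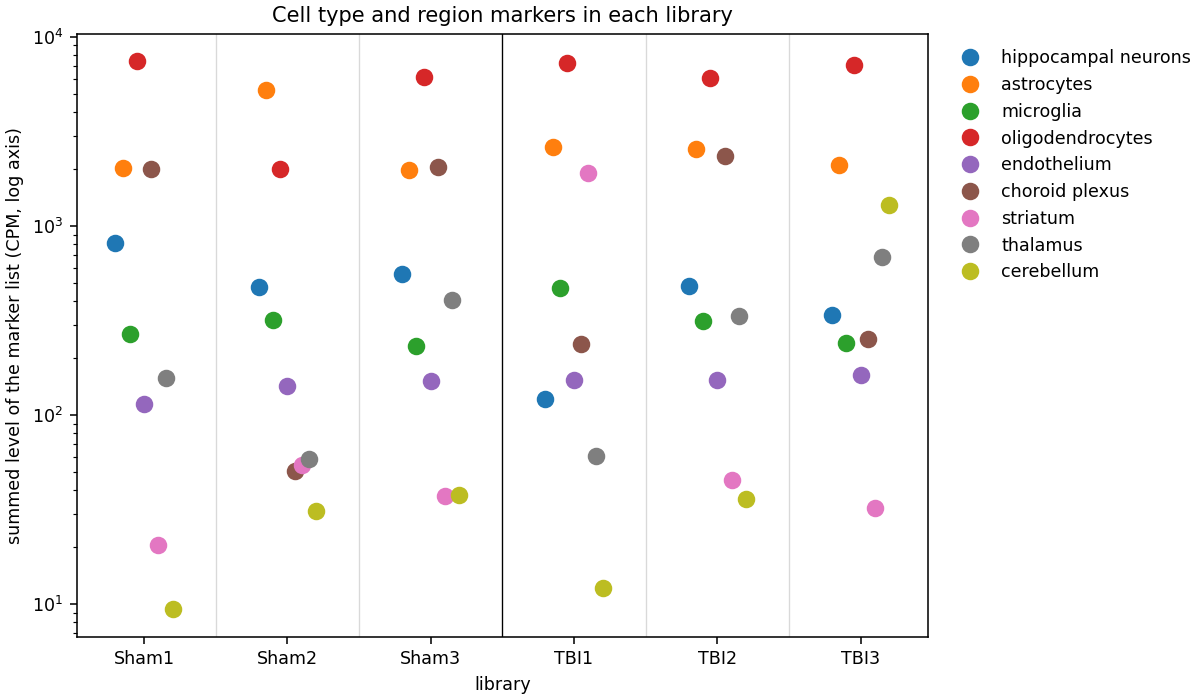
Summed level in CPM (log axis) of 9 marker lists in each of the 6 libraries, 1 point per list and library, sham left of the dark line and TBI right of it. Striatal markers stand out in TBI1 at 1903 CPM, cerebellar markers in TBI3 at 1295 CPM, and oligodendrocyte markers are lowest in Sham2 at 2000 CPM.

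The clock genes were expressed in every library, and none of the 10 passed the test between TBI and sham. With all 6 libraries Cry1, Ciart, Dbp and Per1 had the largest differences, all toward higher levels in TBI, and Nr1d1, the most abundant, differed little. This ranking changed with the libraries used. The log2 fold change of Dbp was 0.12 without Sham2. Without TBI1 that of Per3, at 0.37, exceeded that of Per1, at 0.19. To be called, a gene needed a fold change of more than 1.5 in either direction together with a p below 0.05 and, after adjustment, below 0.1. By edgeR's quasi-likelihood test this held for 0 of the 10 clock genes and for 0 of 18795 genes tested (0%). DESeq2 with its defaults called 46 of 28289 genes (0.163%) and 0 of the clock genes. At an unadjusted p below 0.05 there were again 0 of the 10, against 4.29% of all genes tested, 2.16% higher and 2.13% lower in TBI. Without Sham3 there were 2 such genes, Per1 at an unadjusted p of 0.0420 and Ciart at 0.0148, and without TBI2 there was 1, Cry1 at 0.0198. The adjusted p of these genes by edgeR was 0.764 or more in every alternative. The share of all genes with an unadjusted p below 0.05 was not taken in those fits, so these counts cannot be set against it. In 0 of the 10 were the groups without overlap, against 10.2% of all genes tested, 4.77% higher and 5.45% lower. Of the 10, 8 had a positive log2 fold change (higher in TBI), against 51.4% of all genes tested, and the median over the 10 was 0.14, against 0.0091 over all genes. Leaving out Sham3 moved this median to 0.37, and leaving out Sham2 moved it to 0.090 and the count of positive genes to 6.

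**Figure D2:**
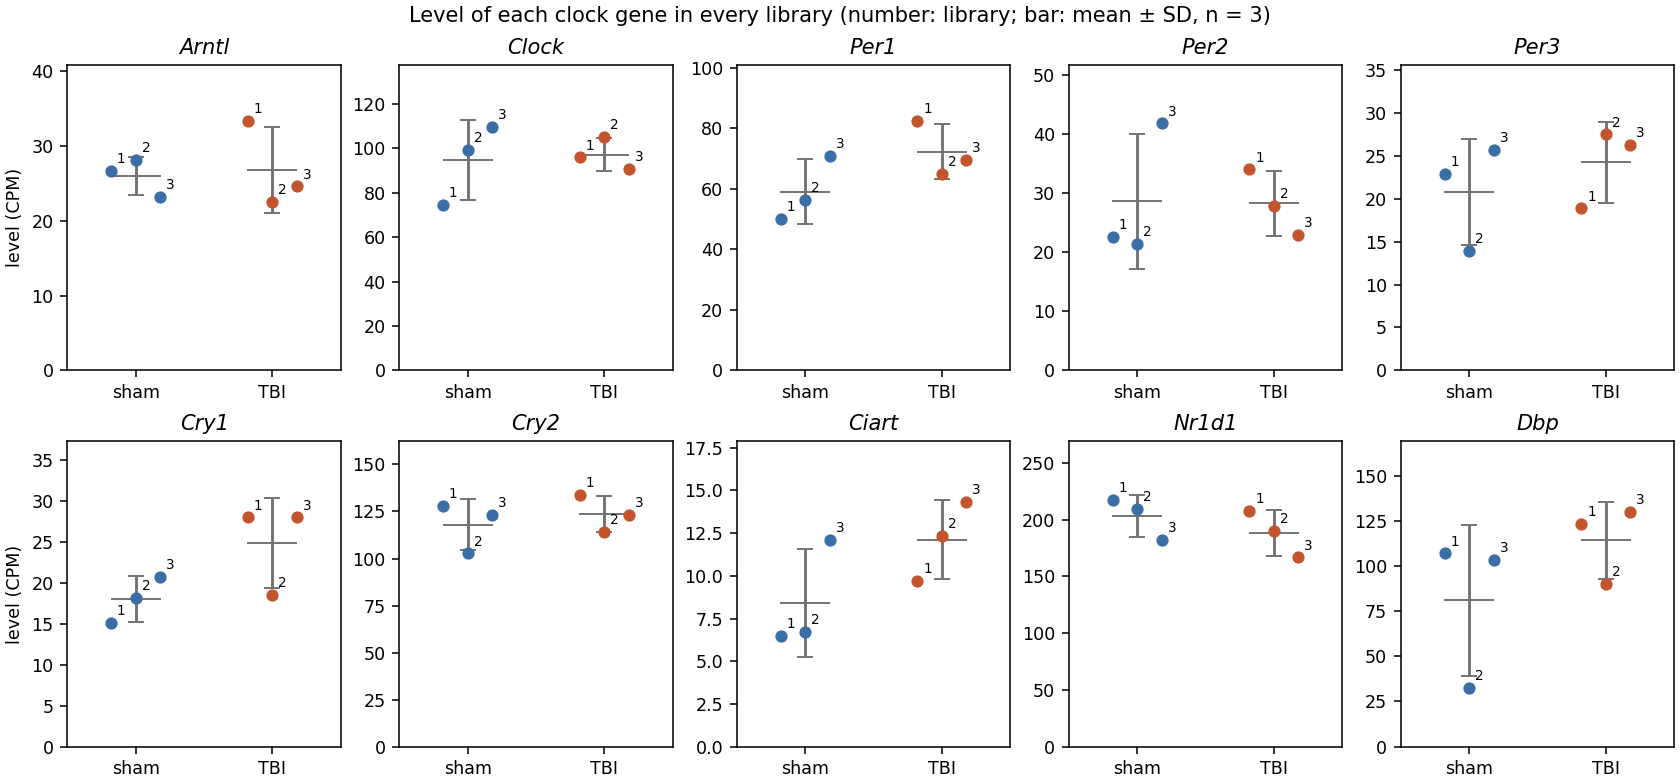
Level in CPM of the 10 clock genes in each library (points, numbered by replicate, sham blue and TBI orange) with the mean and SD of each group (bars, n = 3 mice). In each of the 10 panels the groups overlap, and Dbp in Sham2, at 32.6 CPM, lies farthest below its group.

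Arntl and Clock encode the paired activators. In GRCm38 coordinates Arntl lies at chr7:113207465-113314126, plus strand, and Clock at chr5:76209868-76304792, minus strand. The level of Arntl was 26.7, 28.1 and 23.2 CPM in Sham1 to Sham3 and 33.4, 22.6 and 24.6 CPM in TBI1 to TBI3. The TBI libraries thus held both the highest and the lowest value, and the log2 fold change was 0.046 (standard error 0.190, 95% interval -0.41 to 0.50, edgeR adjusted p 0.992). It was -0.14 without TBI1 and -0.035 without Sham3. Clock was at 74.6, 99.3 and 109.7 CPM in sham and 95.9, 105.0 and 90.6 CPM in TBI. All TBI values lay within the range of sham, and the log2 fold change was 0.039 (95% interval -0.36 to 0.43). It was -0.100 without Sham1 and -0.025 without TBI2. For both activators a change of more than about 1.5-fold in either direction lay outside the interval.

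The Per genes encode repressors, and Per1 is also an early-response gene. Per1 lies at chr11:69095217-69109960, plus strand, Per2 at chr1:91415982-91459324, minus strand, and Per3 at chr4:151003652-151044665, minus strand. Per1 was at 49.9, 56.4 and 70.8 CPM in sham and 82.3, 65.0 and 69.6 CPM in TBI. Sham1 and Sham2 lay below all TBI libraries and Sham3 among them, and the mean was 59.0 ± 10.7 CPM for sham and 72.3 ± 8.995 CPM for TBI (SD, n = 3). The log2 fold change of Per1 was 0.29 (standard error 0.169, 95% interval -0.11 to 0.70, edgeR adjusted p 0.982), and it ran from 0.19 without TBI1 to 0.44 without Sham3. Per2 was at 22.7, 21.5 and 41.9 CPM in sham and 34.1, 27.9 and 23.0 CPM in TBI. Sham3 was the highest library and the other sham libraries were the lowest, and the log2 fold change of -0.019 (95% interval -0.74 to 0.70) turned to 0.35 without Sham3 and to 0.11 without TBI3. Per3 was at 22.9, 13.9 and 25.7 CPM in sham and 18.9, 27.5 and 26.3 CPM in TBI. Sham2 was lowest and TBI1 next, and the log2 fold change of 0.22 (95% interval -0.43 to 0.87) was -0.0030 without Sham2. The members of this family thus did not share an order of libraries.

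Cry1 and Cry2 encode the cryptochromes, which bind and silence the activator pair. Cry1 lies at chr10:85131700-85185064, minus strand, and Cry2 at chr2:92403646-92434043, minus strand. Cry1 was at 15.1, 18.2 and 20.8 CPM in sham and 28.0001, 18.5 and 28.01 CPM in TBI. TBI1 and TBI3 lay above every sham library while TBI2 lay between Sham2 and Sham3. The mean was 18.01 ± 2.84 CPM for sham and 24.8 ± 5.48 CPM for TBI (SD, n = 3). The log2 fold change of 0.46 (standard error 0.221, 95% interval -0.062 to 0.99) had the smallest unadjusted p among the clock genes, 0.0752, and the edgeR adjusted p was 0.982. Over 19 alternatives it ran from 0.36 to 0.63, with adjusted p from 0.764, without TBI2, to 0.9999. Cry2 was more even, at 128.0, 102.7 and 123.3 CPM in sham and 114.2 to 133.7 CPM in TBI. Its log2 fold change of 0.069 (95% interval -0.24 to 0.38) was -0.022 without Sham2.

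Ciart (chr3:95878503-95882251, minus strand) was the least abundant in CPM, at 6.47, 6.73 and 12.1 CPM in sham and 9.70, 12.3 and 14.3 CPM in TBI. Sham1 and Sham2 lay below every TBI library, and Sham3 lay within the TBI range. The log2 fold change of Ciart was 0.52 (standard error 0.306, 95% interval -0.21 to 1.26, edgeR adjusted p 0.982), and it ran from 0.37 without Sham1 to 0.87 without Sham3.

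Nr1d1 (chr11:98767932-98775333, minus strand) was at 217, 210 and 182 CPM in sham and 208, 190 and 167 CPM in TBI. The highest value was in sham and the lowest in TBI, with the others interleaved, and the log2 fold change was -0.11 (standard error 0.130, 95% interval -0.42 to 0.20, edgeR adjusted p 0.982). It stayed negative over 19 alternatives, from -0.19 to -0.035. Of the 3077 exonic bases of Nr1d1, 263 (8.55%) are also exonic in Thra, a thyroid hormone receptor gene on the opposite strand, and the strand setting of the counting is not given in the sources used here. Thra was at 961 to 1201 CPM in sham and 815 to 1004 CPM in TBI (log2 fold change -0.25, and -0.14 without Sham1), far more than Nr1d1, and how reads from these bases were divided between the genes is unknown.

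Dbp (chr7:45705088-45710203, plus strand) had the widest range of the 10. It was at 107.0, 32.6 and 103.2 CPM in sham and 123.1, 90.0 and 129.9 CPM in TBI. Sham2 stood far below all other libraries, the rest of sham lay inside the TBI range, and the highest library was 3.99 times the lowest. The log2 fold change was 0.50 (standard error 0.432, 95% interval -0.53 to 1.53, edgeR adjusted p 0.982), and without Sham2 it was 0.12. Sham2 is also the library with the lowest oligodendrocyte and choroid plexus markers and the highest sum of astrocyte markers, and their part in the level of Dbp was not tested. Of the 2993 exonic bases of Dbp, 539 (18.01%) are also exonic in Sphk2, a sphingosine kinase gene on the opposite strand. Sphk2 was at 58.9, 33.8 and 54.1 CPM in sham and 61.9, 54.2 and 62.0 CPM in TBI, with Sham2 again lowest. Smaller overlaps on the opposite strand were 295 exonic bases of Cry2 with D930015M05Rik, which was under 0.731 CPM in every library, and 33 of Arntl with Gm45355, which had no counts.

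**Figure D3:**
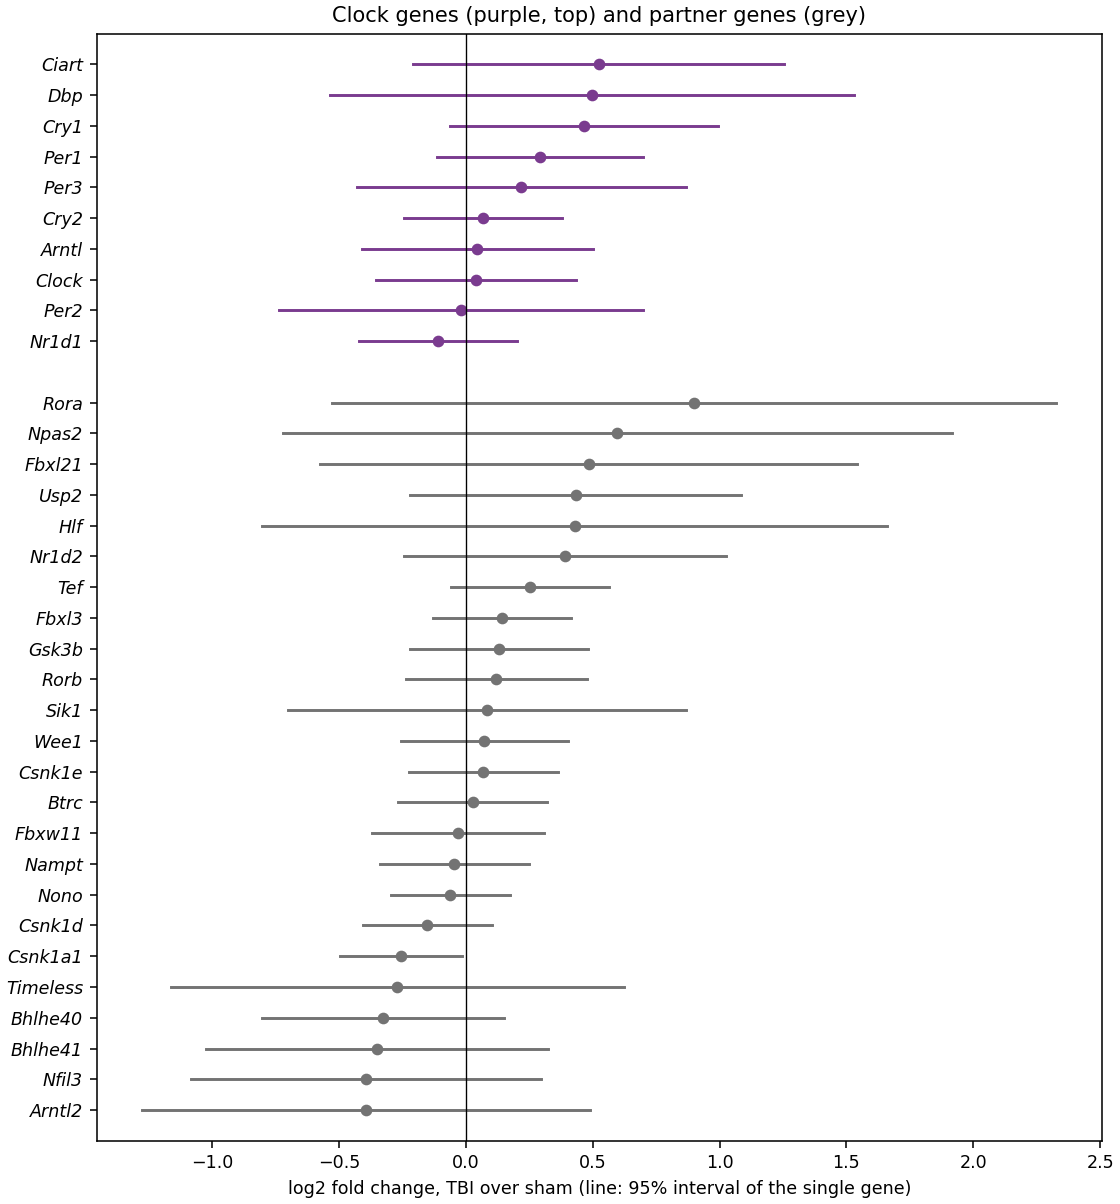
Log2 fold change of TBI over sham (points) with the 95% interval of the single gene (lines) for the 10 clock genes (purple) and 24 of the 25 partner genes (grey), from edgeR's quasi-likelihood fit. All 10 purple intervals include 0, and of the grey ones only that of Csnk1a1, from -0.50 to -0.015, does not.

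Levels of different genes were compared as CPM per kilobase of annotated exon, averaged over the 6 libraries. On this scale Nr1d1 was highest at 63.6, followed by Dbp at 32.6, Cry2 at 19.1, Per1 at 11.7, Clock at 6.98, Cry1 at 6.41, Per2 at 4.87, Ciart at 4.54, Arntl at 3.51 and Per3 at 2.34. The ranges over the 6 libraries did not overlap between Nr1d1 and Dbp, Cry2 and Per1, Per1 and Clock, or Arntl and Per3. They overlapped between Dbp and Cry2 and between each pair of neighbours from Clock down to Arntl, so neighbours in those runs did not differ beyond their spread. Dbp and Cry2 overlapped through Sham2 alone, since Dbp was at 30.1 or more per kilobase in the other 5 libraries and Cry2 at 21.2 or less. Genes farther apart could, as the ranges of Clock and Cry1 lay wholly above that of Arntl. The exonic length counts all annotated transcripts, from 2261 bases in Ciart to 13727 in Clock, and a gene that mostly uses a short transcript is understated by it.

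The spread between mice of a group differed among the clock genes, in a graded series. The SD within groups of log2 CPM was 0.14 for Cry2, 0.15 for Nr1d1, 0.22 for Clock and Per1 and 0.23 for Arntl, which placed these 5 between the 16.4th and 35.8th percentile of all genes tested. It was 0.29 for Cry1, 0.39 for Per3, 0.41 for Ciart and 0.43 for Per2, between the 46.1st and 62.1st percentile, and 0.72 for Dbp, at the 81.0th percentile. The median over the 10 was 0.26, against 0.32 over all genes. Sham1 and Sham2 were the lowest library for 4 clock genes each, where 15.9% and 23.0% of all genes tested had their lowest level. Sham1 was lowest for Per1, Cry1, Clock and Ciart, and Sham2 for Per2, Per3, Cry2 and Dbp. TBI1 and TBI3 were the highest for 3 each, Per1, Cry2 and Arntl in TBI1 and Cry1, Dbp and Ciart in TBI3, where 19.7% and 19.8% of all genes tested had their highest level.

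In the textbook loop Arntl peaks when the E-box targets are low, so the relation of Arntl to each of the other 9 was taken over the 6 libraries, as Pearson's r and Spearman's rho of log2 CPM with two-sided exact permutation tests and adjustment over 9 relations. Per3 had the strongest inverse relation, with r = -0.70 (exact permutation p = 0.114, adjusted 0.871) and rho = -0.89 (exact permutation p = 0.0333, adjusted 0.300). Ciart had r = -0.50 and rho = -0.60, and Nr1d1 had r = 0.61 and rho = 0.54, with adjusted p from 0.755 to 0.871 in exact permutation tests. The other 6 had r between -0.29 and 0.30. No relation passed the adjustment. Without TBI1 and TBI2, the libraries farthest from the median of Arntl, r was -0.84 for Per3, -0.86 for Ciart and 0.77 for Nr1d1 over 4 libraries, and it turned from 0.21 to -0.83 for Per1, from 0.30 to -0.57 for Cry1 and from 0.28 to -0.61 for Cry2. For Per2, Dbp and Clock it was -0.81, -0.72 and -0.44. With library totals in place of TMM the r over all 6 libraries kept its sign for each of the 9 genes. The 2 farthest libraries were then Sham2 and TBI1, and without them r was -0.71 for Per3, -0.55 for Ciart, 0.27 for Nr1d1, -0.59 for Per1, -0.086 for Cry1, 0.75 for Cry2, -0.70 for Per2, 0.61 for Dbp and -0.90 for Clock. These 2 sets of values over 4 libraries differ both in the scaling and in the libraries left out, so the parts of the 2 choices cannot be told apart. TBI1, where Arntl was highest, is the library with striatal markers, whose part in these relations was not tested.

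Another 25 genes of the clock, called partners here, held paralogs of the members, kinases and ubiquitin ligases that set the stability of the PER and CRY proteins, and further output genes. All 25 were tested, 15 had a positive and 10 a negative log2 fold change, the median was 0.074, and 0 were called by edgeR (0% of all genes). Of the 25, 1 gene had an unadjusted p below 0.05 and 1, the same gene, had no overlap between groups, against 4.29% and 10.2% of all genes tested. It was Csnk1a1, the casein kinase 1 alpha gene, at 301, 337 and 312 CPM in sham and 256, 263 and 277 CPM in TBI. Its log2 fold change was -0.26 (standard error 0.101, edgeR adjusted p 0.982), and its unadjusted p of 0.0403 was between 0.0516 and 0.0947 with any 1 of the 6 libraries left out. Csnk1d, a kinase of the PER proteins, was at 155 to 181 CPM in sham and 146 to 155 CPM in TBI (log2 fold change -0.15, and -0.095 without Sham2).

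Dbp belongs with Tef and Hlf to the PAR bZIP factors, which bind the same D-boxes, while Nfil3 binds them as a repressor. Sham2 was the lowest library for all 3 PAR bZIP genes and the highest for Nfil3. Tef was at 335, 291 and 375 CPM in sham and 423, 403 and 367 CPM in TBI (log2 fold change 0.25, 95% interval -0.059 to 0.56, and 0.16 without Sham2). Hlf was at 88.5, 52.7 and 207 CPM in sham and 97.1, 190 and 182 CPM in TBI, a range over libraries of 3.93 times. Its log2 fold change of 0.43 was 0.080 without Sham2 and 1.14 without Sham3. Nfil3 was at 9.04, 15.9 and 8.36 CPM in sham and 7.53 to 9.26 CPM in TBI (log2 fold change -0.39, and -0.041 without Sham2).

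The same split ran through other partners. Usp2, a rhythmic deubiquitinase gene, was at 49.3, 24.7 and 48.0 CPM in sham and 49.1 to 62.5 CPM in TBI. Nr1d2, the paralog of Nr1d1, was at 101, 72.3 and 133 CPM in sham and 107, 125 and 170 CPM in TBI. Sham2 was lowest for both, and their log2 fold changes of 0.43 and 0.39 were 0.17 and 0.19 without it. That of Nr1d2 was also 0.17 without TBI3, and 0.62 without Sham3. Bhlhe40 and Bhlhe41 (DEC1 and DEC2), which repress E-box targets, were highest in Sham2, at 154 and 102 CPM against 89.3 to 104 and 46.7 to 62.3 CPM in the other libraries. Nr1d1 itself did not follow this split, since its level in Sham2 was 210 CPM, inside the range of the others. Sham2 was the lowest library for 8 of the 25 partners and the highest for 7, against 23.0% and 23.7% of all genes tested, so the count of extremes in this library was near that of all genes. Beside these values Sham2 had the marker levels given above, and their part was not tested.

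**Figure D4:**
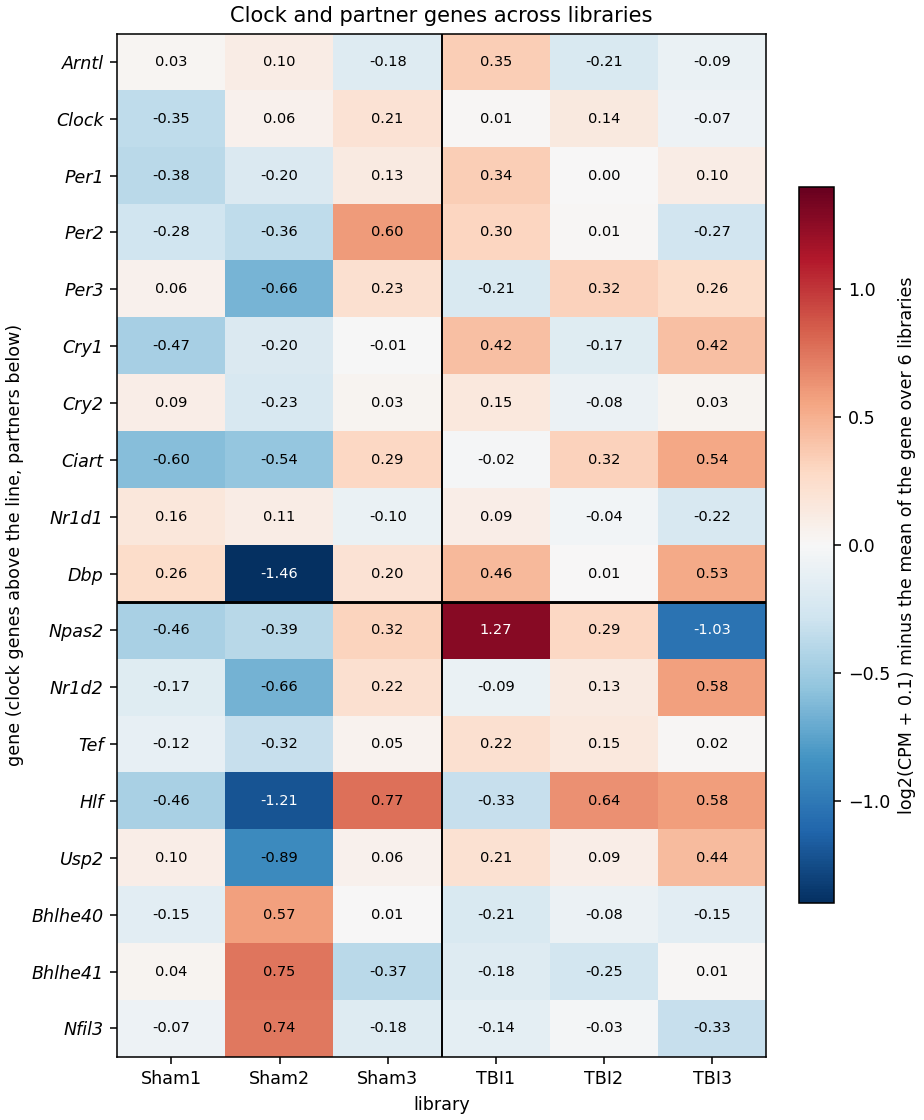
Deviation of each gene from its own mean over the 6 libraries, as log2(CPM + 0.1), for the 10 clock genes (above the line) and 8 partners (below it), red higher and blue lower. Sham2 shows the deepest blue in Dbp, at -1.46, and Hlf, at -1.21, and is red in Bhlhe40, Bhlhe41 and Nfil3, at 0.57 to 0.75.

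Npas2, which can stand in for Clock in the forebrain, was at 14.9, 15.7 and 25.6 CPM in sham and 49.8, 25.1 and 10.002 CPM in TBI. TBI held both extremes, with the highest in TBI1, the library with striatal markers, and the log2 fold change of 0.60 (95% interval -0.72 to 1.91) was -0.093 without TBI1. Rora encodes an activator of Arntl that binds ROR elements. Rora, named after its values were seen, was at 67.3, 46.9 and 140 CPM in sham and 63.6, 139 and 272 CPM in TBI (log2 fold change 0.90, standard error 0.597). This fold change was 0.25 without TBI3 and 1.46 without Sham3. TBI3 was highest for Rora, as it was for the cerebellar and thalamic markers, and the part of these tissues was not tested.

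Some clock genes also answer to glucocorticoids, neuronal activity and temperature, so lists of such genes were read beside them. Among 10 glucocorticoid-responsive genes the fold change was positive for 5 and negative for 5, and 0 had an unadjusted p below 0.05. The smallest p were those of Sgk1, at 65.5, 104 and 177 CPM in sham and 134, 187 and 234 CPM in TBI, and Pdk4, with log2 fold changes of 0.68 and 0.51. That of Sgk1 was 0.40 without Sham1 and 1.12 without Sham3, where its unadjusted p was 0.0130 by edgeR (adjusted 0.937). The log2 fold change of Pdk4 was 0.26 without Sham2 and 0.33 without TBI2. Among 10 activity-induced genes it was negative for 8, and 1 had an unadjusted p below 0.05 by edgeR, against 4.29% of all genes. It was Npas4, at 10.05, 25.5 and 2.63 CPM in sham and 4.43, 2.62 and 1.10 CPM in TBI (log2 fold change -2.22, edgeR adjusted p 0.982). Fosb, at -0.99, had an unadjusted p of 0.0448 (adjusted 0.904) with DESeq2's defaults. Npas4 and Fosb were both highest in Sham2, and without it they were at -1.22 and -0.28. Among 8 temperature-responsive genes it was negative for 7, and 0 had an unadjusted p below 0.05 by edgeR. With DESeq2's defaults the unadjusted p was 0.0211 for Hspa1b (adjusted 0.781) and 0.0474 for Hspb1 (adjusted 0.918). Hspa1b, at -1.14, was -0.30 without Sham3, where it was at 57.3 CPM, and Hspb1, at -2.85, rested on 323 CPM in Sham2 and was 0.19 without it.

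The genes outside these lists whose log2 CPM followed Dbp most closely over the 6 libraries were D830035M03Rik (r = 0.998), Sphk2 (0.994), Acadm (0.994), Hexim2 (0.993) and Snapin (0.993). They were picked as the highest of 18686 genes over 6 libraries. Within a library all genes share its depth and its tissue makeup, so the values are a description with no test. All 5 were lowest in Sham2, with Acadm at 24.3 CPM there and 41.8 to 47.0 CPM elsewhere. Sphk2 is the gene that shares exonic bases with Dbp.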

How the data were processed

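Hippocampal RNA of 6 mice was sequenced. The study's methods do not say which side of the brain went into a library. Per the labels, the authors used FastQC for read quality, HISAT2 for alignment on GRCm38 and StringTie for quantification. What they deposited is 1 whole, unscaled estimated count for each gene and library, and versions, annotation and strandedness are not given in the sources used here. Low values pile up at multiples of 4, with 5109 values of 4 against 2325 of 3, so these are not plain read numbers. Of 52550 identifiers 52403 matched a symbol of GENCODE vM21. The comparison used R 4.3.3 with edgeR 4.0.16, filterByExpr, TMM and the quasi-likelihood test with Benjamini-Hochberg adjustment over 18795 genes, and DESeq2 1.42.0 was an alternative. Standard errors come from the fold change and the F statistic, and 95% intervals from the moderated degrees of freedom, for single genes. The fit was tested on simulated data. With 3 mice per group each p-value sets the group difference against the spread between libraries of a group, moderated over genes. This spread includes the differences in tissue makeup between libraries. Members and lists were chosen with earlier results of these data known. Named partners were 8 listed genes and the 3 with the smallest p in each direction, of which 1 is not reported here. Other lists gave the 2 with the smallest p. Promoter sequences are those of RefSeq on GRCm38.p6.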

Additional observations from a re-analysis of the deposited data

How the results depend on the processing

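No clock gene and no partner was called under any of the 19 alternatives. Those with a stricter adjusted p and with no fold change threshold reuse the main fit, so they could not move a fold change. The stricter adjusted p could also call no gene, since the main fit called 0. The count over all genes was 46 with DESeq2's defaults, 43 with DESeq2 on the genes of filterByExpr, 3 without Sham2 and TBI1 (chosen after seeing the data) and 0 to 1 with 1 library left out. With 1 library left out the median over the clock genes ran from 0.090 to 0.37 and the number with a positive fold change from 6 to 9. Of the 10 clock genes 5 (Per1, Cry1, Nr1d1, Dbp and Ciart) kept their sign in every alternative. With 1 library left out, log2 fold changes ran from -0.19 to 0.35 for Per2, -0.0030 to 0.39 for Per3, -0.022 to 0.14 for Cry2, -0.14 to 0.15 for Arntl and -0.100 to 0.15 for Clock. For other named genes the same ranges were -0.093 to 0.9985 (Npas2), -0.58 to 0.015 (Bhlhe41), -3.40 to 0.19 (Hspb1), -0.28 to 1.204 (D930015M05Rik), -0.015 to 0.81 (Hexim2) and -0.017 to 0.26 (Snapin). Without both Sham2 and TBI1 the log2 fold change was -0.082 for Cry2 and for Arntl, -0.21 for Npas2, 0.037 for Bhlhe41, -0.018 for D830035M03Rik and Hexim2, -0.0093 for Acadm and -0.025 for Snapin. Without the 2 libraries farthest from the median of Arntl, its r was -0.83 with Per1, -0.57 with Cry1 and -0.61 with Cry2, and with library totals, where the libraries left out were others, -0.59, -0.086 and 0.75. Nothing beyond the replicate number links same-numbered mice of the groups in the sources used here. Their deviations from the group means correlated at -0.0996, -0.065 and 0.153, against -0.18 to 0.21 for the other pairs. These values cannot show whether such mice shared a session or an hour of day. With that number as a replicate block 0 genes were called, and Per2, at 0.038, was the only clock gene to turn its sign. Sgk1 had an unadjusted p of 0.00746 with the block, by edgeR, and an adjusted p of 0.9995. The cause of these shifts was not tested. With 3 mice per group the 95% intervals stayed wide, from -0.53 to 1.53 for Dbp and from -0.21 to 1.26 for Ciart.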
